A study of Mus musculus with 8 samples.

Results

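The 7 genes described here, Erg, Fli1, Lmo2, Gata2, Runx1, Tal1 and Lyl1, encode the transcription factors known as the stem cell heptad. These proteins bind together at enhancers of blood stem and progenitor cells, including enhancers of their own genes, so that each gene is both a source and a target of the group. Erg and Fli1 are ETS factors, Gata2 is a zinc finger factor, Runx1 binds DNA with its partner Cbfb, Tal1 and Lyl1 are basic helix-loop-helix factors that bind E-boxes, and Lmo2 is a bridging protein without DNA contacts of its own.

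H3K27ac HiChIP captures pairs of DNA fragments that lie together in the nucleus and enriches those carrying acetylated H3K27, a mark of active promoters and enhancers. It was carried out in HPC-7, a line of mouse blood progenitor cells with very little CEBPA of its own. All cells carried a retroviral construct for 1 isoform of CEBPA, a myeloid transcription factor, either the full-length p42 or the shorter p30 that is kept in leukaemia with CEBPA mutations. Cells of each isoform were left untreated (UT) or given lipopolysaccharide (LPS), a bacterial inflammatory signal, at 100 ng/mL for 2 h, which gave 4 groups of 2 replicates and 8 libraries. No cells without an added isoform were analysed here, so p42 and p30 were compared with each other. The paper describes its p42 and p30 HPC-7 lines as carrying tamoxifen-inducible fusions of each isoform, and it uses these line names for the HiChIP. It also made lines with constitutive constructs, and its HiChIP methods do not name the construct. Both replicates of a group were pooled into 1 list of significant interactions, called loops, so no spread between replicates could be measured, and each test compares these libraries and not the conditions.

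A promoter loop of a gene was a loop with a 5 kb bin that held the start of its canonical transcript (GENCODE M39, mouse build GRCm39). By this rule 140 different promoter loops were found for the 7 genes, among 214313 loops in the union of the 4 lists. A further 982 loops lay inside the genes and 150 kb on each side without touching the start-site bin. Distances are given from the start-site bin in the direction of transcription, with a minus sign for upstream. Of the 140 loops, 38 were in all 4 lists and 54 in 1 list. The partner bin lay within the body of the same gene for 48 loops, held the start site of another protein-coding gene for 15, and overlapped no protein-coding gene for 62.

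The lists held 80489 and 94609 loops for p30 cells and 158233 and 78591 for p42 cells. Here and below, where 2 values are given for an isoform the first is UT and the second LPS. The loop caller had modelled 17976716 and 14503330 contacts in p30 and 18999991 and 15831583 in p42 cells. Because the p42 UT list was the longest, loop counts are also given at equal list size, for the 78591 loops of lowest q-value per list. The progenitor genes Kit, Cd34, Ptprc and Myb had promoter loops in all 4 lists. Of 4 genes of other tissues, Alb and Neurod1 had none, Myod1 had 2 and 2 in p30 and 1 and 0 in p42 cells, and Ins2 had 7 and 8 in p30 and 6 and 2 in p42 cells, so that loops alone did not separate Ins2 from the progenitor genes.

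Together the 7 genes had 59 and 66 promoter loops in p30 cells and 120 and 78 in p42 cells. At equal list size the counts were 59 and 55 in p30 and 79 and 78 in p42 cells, higher with p42 under both treatments. Of the 140 loops, 57 were in at least 1 p42 list and in neither p30 list, which is 40.7% of them and close to the 40.2% of all loops, and 12 were in a p30 list and in neither p42 list, 8.57% against 17.4% of all loops. At equal list size these were 34 and 16 of 112 loops, 30.4% and 14.3%, against 27.3% and 29% of all loops. Both p42 lists alone shared 14 loops, 10% against 5.53% of all loops, and both p30 lists alone shared 1, against 1.58%. At equal list size they shared 12 and 2 of the 112, against 4.3% and 3.63% of all loops. At equal list size Gata2, Lmo2, Fli1 and Erg had more promoter loops with p42 than with p30 under both treatments, which is 4 of 7 genes where 13% of all 10513 genes with a promoter loop did so. None of the 7 had fewer with p42 under both treatments, against 14.7% of all genes. In the lists as deposited the first pattern held for Lmo2, Fli1 and Erg, 3 of 7 genes against 17.2% of all genes. The 10513 genes had a median of 2 and 2 promoter loops in p30 and 4 and 2 in p42 cells in the lists as deposited, fewer than most heptad genes. A gene with few loops has less room to differ between lists, and genes of like loop number were not compared.

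**Figure D1:**
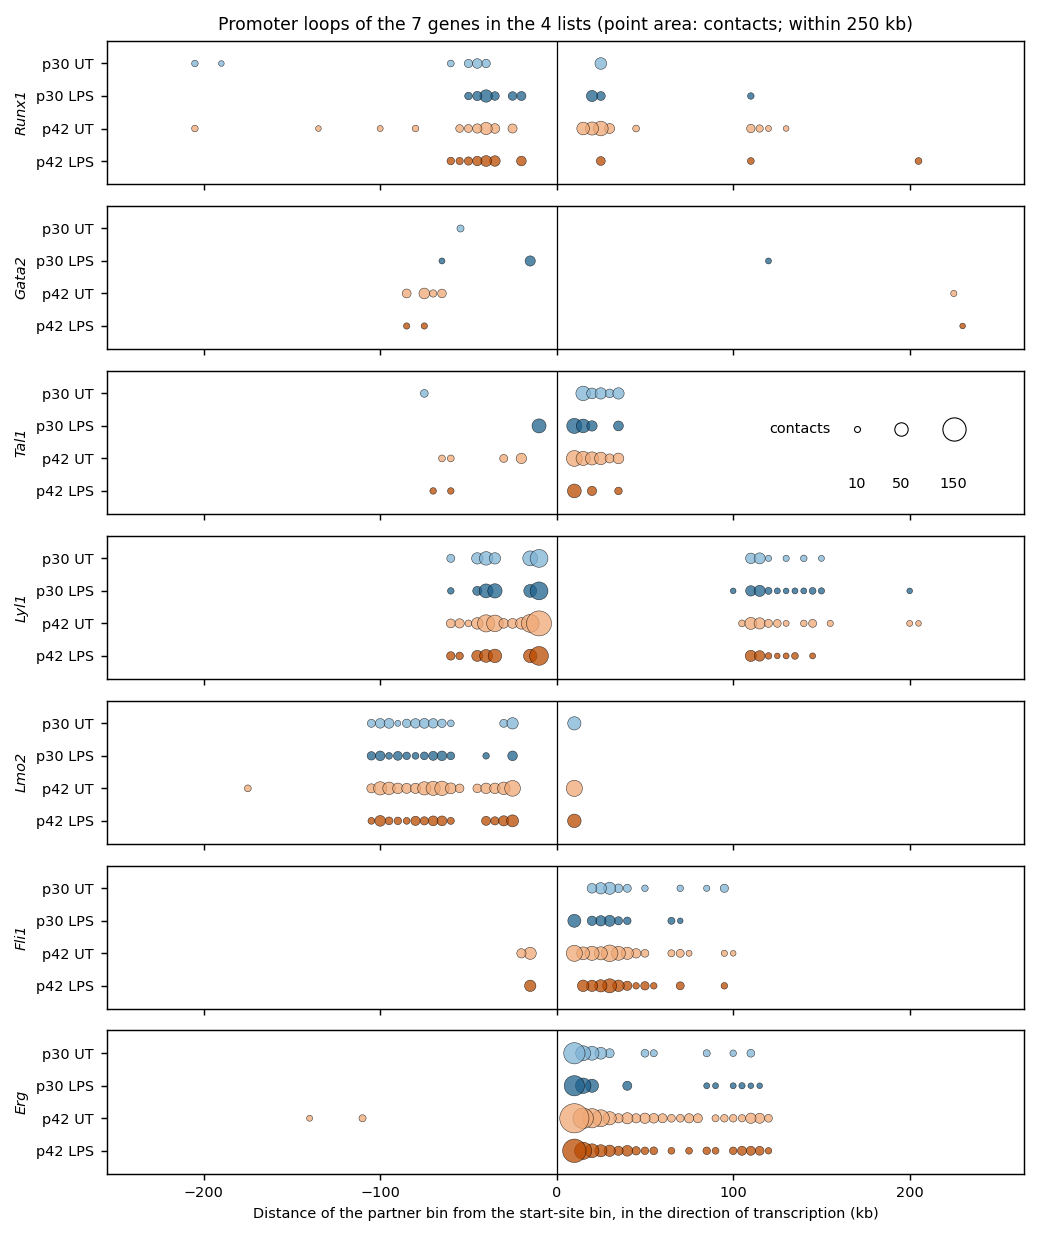
Partner bins of the promoter loops of each gene, by distance from the start-site bin (kb, positive in the direction of transcription) in the 4 lists, with point area proportional to the contact count; the 9 loops beyond 250 kb are not drawn. Lmo2 partners lie mostly upstream, Fli1 and Erg partners mostly inside the gene, and Lyl1 partners in an upstream and a far downstream block.

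Relative coverage, the reads of a bin divided by the mean of the peak bins of its list, measures how much acetylated chromatin was captured at a bin. Among all 31321 bins with an H3K27ac peak that were in loops of all 4 lists, 2.1% were over 1.5-fold higher in p42 than in p30 under both treatments and 0.508% were lower. The start-site bins of Lmo2 and Erg were among the higher ones, 2 of 7 genes, and none of the 7 was among the lower ones. For the response to LPS the shares were 0.549% higher and 0.112% lower with both isoforms, and none of the 7 start-site bins met either.

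**Figure D2:**
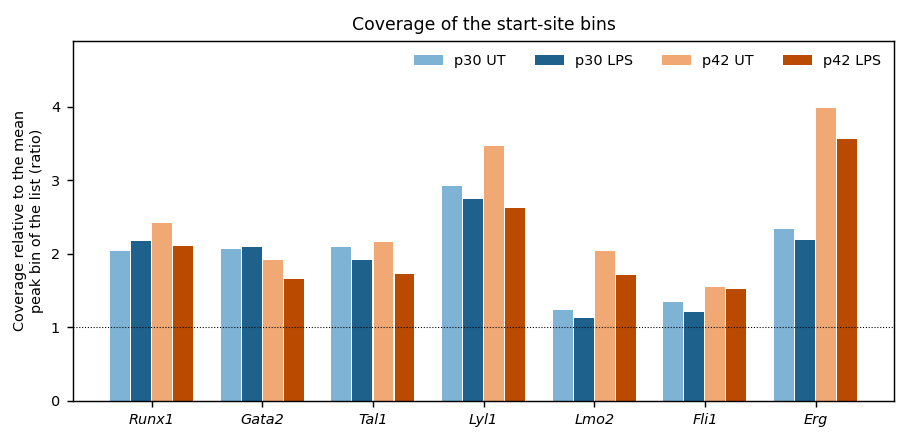
Coverage of the bin with the canonical start site of each gene relative to the mean peak bin of the list (ratio, 1 bar per list, no error because replicates were pooled), with a dotted line at the mean peak bin. Erg, Lmo2 and Fli1 are higher in both p42 lists than in both p30 lists, Fli1 by less than 1.5-fold, and Gata2 is lower.

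Over the 38 heptad promoter loops in all 4 lists, contacts summed to 1222 and 1131 in p30 cells and 2075 and 1309 in p42 cells. Per modelled contact the log2 ratio of p42 over p30 was 0.68 untreated (95% Wilson interval 0.58 to 0.79) and 0.08 with LPS (-0.03 to 0.20). All 31032 loops in all 4 lists had 0.36 and -0.21, so the heptad ratios lay above those of all loops under both treatments. The LPS over UT ratio was 0.20 in p30 cells (0.08 to 0.31) beside 0.29 over all loops, and -0.40 in p42 cells (-0.50 to -0.30) beside -0.28. Intervals cover counting error alone.

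Each of the 31032 loops was compared by an exact binomial test, two-sided, with adjustment by the Benjamini-Hochberg method over all of them. Of the 38 heptad loops, 13 had more contacts in p42 UT than in p30 UT, against 10.7% of all loops tested, and 0 had fewer, against 0.126%. With LPS 0 had more and 0 fewer, against 0.267% and 2.35%. After LPS 2 loops rose in p30 cells and 0 fell, against 3.89% and 0.0387%, and in p42 cells 0 rose and 1 fell, against 0.087% and 3.58%. By the exact binomial test at an unadjusted p under 0.05, 18 heptad loops were higher and 0 lower in p42 UT than in p30 UT, against 22.3% and 0.867% of all loops, and with LPS 2 were higher and 0 lower in p42, against 1.72% and 10.7%. At the same level 3 rose and 0 fell with LPS in p30 cells, against 14.5% and 0.644%, and 0 rose and 12 fell in p42 cells, against 0.915% and 15.2%. The 13 loops depended on the scaling. When the null share was centred on the summed contacts of the loops tested, 0 of the 38 were called in any comparison, where 1.55% and 0.815% of all loops were called untreated and 0.512% and 0.519% with LPS, more and fewer in p42. For LPS against UT under the same scaling, 0.371% of all loops rose and 0.132% fell in p30 cells, and 0.242% rose and 0.342% fell in p42 cells. When the expected counts, which take up the coverage of both bins, set the null share, 0 of the 38 were called as well, but few of all loops were either, 1.4% higher in p42 UT, 0.135% higher with LPS in p30 and 0.274% lower with LPS in p42 cells. The adjusted p-values given below are those of the first scaling, and none of them passed under either other one.

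**Figure D3:**
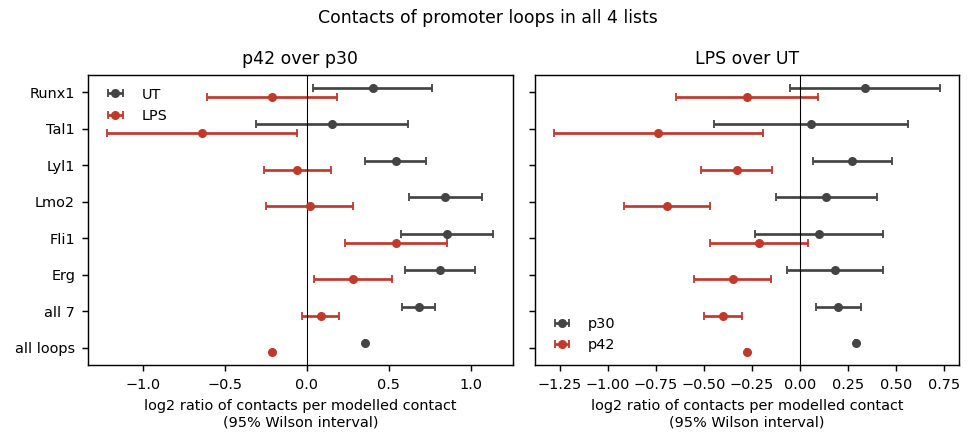
Log2 ratio of summed contacts per modelled contact over promoter loops in all 4 lists, for p42 over p30 (left) and LPS over UT (right), with 95% Wilson intervals (counting error alone); Gata2 had no such loop. The untreated p42 over p30 ratio is 0.86 for Fli1 and 0.15 for Tal1, beside 0.36 for all loops.

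Erg (chr16:95160028-95387452, minus strand), an ETS gene required for stem cell maintenance, was higher with p42 in loops and in coverage. Its canonical start at 95260207 lies inside the gene, and its upstream starts, at -65, -70 and -125 kb, had no loop in any list. Promoter loops numbered 10 and 10 in p30 cells and 26 and 19 in p42 cells, and 10 and 5 against 20 and 19 at equal list size. Both p42 lists were above both p30 lists on either count, and 5 loops were in both p42 lists alone. The start-site bin had a relative coverage of 2.33 and 2.19 in p30 cells and 3.98 and 3.56 in p42 cells. The log2 difference of p42 from p30 was 0.77 untreated and 0.70 with LPS, higher than in 97.6% and 98.0% of all peak bins.

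The known Erg enhancers at +65, +75 and +85 kb, counted from the upstream start at 95331224, fall in the bins at -5, +5 and +15 kb from the canonical start. The first and second of these are nearer to the start-site bin than 10 kb, the length of the shortest listed loop. The bin at -5 kb had a relative coverage of 1.52 and 1.37 in p30 and 2.53 and 2.31 in p42 cells, over 1.5-fold higher with p42 under both treatments, as the start-site bin was. The bin at +5 kb had 4.67 and 4.58 in p30 and 6.21 and 5.46 in p42 cells, also higher with p42 but by less than 1.5-fold.

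Contacts of the Erg promoter with the +15 kb bin, which holds the +85 point, were 62 and 67 in p30 and 116 and 83 in p42 cells, where 31.3 and 23.2 and then 42.8 and 31.8 were expected from distance and coverage. Those with the +10 kb bin were 126 and 114 in p30 and 238 and 153 in p42 cells, the highest of any promoter loop of the 7 genes in each list. The untreated p42 value was the highest at both bins. It exceeded that of p30 by the exact binomial test, with adjusted p = 7.4e-06 at +10 kb and 0.00498 at +15 kb. With LPS neither passed, at adjusted p = 0.544 and 0.927 by the same exact binomial test.

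The stretch richest in motifs of blood factors near the +85 point is shown because the promoter contacted its bin in all 4 lists. It lies at chr16:95247244-95247443 (GRCm39, plus strand), in an intron of Erg, and the capitals mark, in this order, a C/EBP, a RUNX and an ETS match.
Erg +85 region: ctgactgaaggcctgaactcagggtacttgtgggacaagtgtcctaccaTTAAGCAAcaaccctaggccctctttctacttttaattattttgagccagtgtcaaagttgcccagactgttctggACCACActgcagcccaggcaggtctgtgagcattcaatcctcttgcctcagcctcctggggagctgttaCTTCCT

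Motifs were searched on both strands, and each share that follows is that of all 200-base windows of the peak bins in all 4 lists. The GATA motif was AGATAA, held by 9.87% of these windows. The ETS motif AGGAAG was held by 23.8% and the RUNX motif, with the letters TGTGGT, by 16.2% of them. For the E-box the searched letters were CAGCTG and a second form with the central pair changed, CAGATG, and 23.7% of windows held either. The AP-1 motif TGANTCA was held by 5.67% of windows, and the C/EBP motif TTGCNNAA by 7.29%. In the 5 kb around each enhancer point, the 200-base window with the most different motifs was taken, so the windows were chosen for their motifs. A match describes the sequence and does not show that a factor was bound.

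Fli1 (chr9:32333500-32454157, minus strand), the other ETS gene, also acts in megakaryocytes and endothelium. It had 9 and 8 promoter loops in p30 and 16 and 12 in p42 cells, and 9 and 7 against 10 and 12 at equal list size. Relative coverage of its start-site bin was 1.34 and 1.21 in p30 and 1.55 and 1.53 in p42 cells, so that both p42 values were above both p30 values by less than 1.5-fold. Of its 18 loops, 16 ran into the gene, and 6, from +20 to +40 kb and at +70 kb, were in all 4 lists. Contacts over these 6 loops were 154 and 133 in p30 and 295 and 212 in p42 cells. The log2 ratio of p42 over p30 was 0.86 untreated (95% Wilson interval 0.58 to 1.14) and 0.55 with LPS (0.23 to 0.86), the highest ratios of the 6 genes with such loops under each treatment. As shares, p42 held 65.7% and 61.45% of these contacts, where the expected counts gave 55.62% and 57.59%. With LPS the expected share lay inside the 95% Wilson interval, 56.21 to 66.43%. Among single loops, that at +35 kb had 21 and 19 contacts in p30 and 54 and 37 in p42 cells, with adjusted p = 0.0064 untreated by the exact binomial test.

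The enhancer at -15 kb of Fli1 was a partner of the promoter in both p42 lists and in neither p30 list. Its contacts with p42 were 41 untreated against 16.2 expected and 36 with LPS against 11.3 expected. The p30 contacts of this pair are unknown, since unlisted pairs carry no values, and the fewest contacts of any listed loop of like distance and expected count were 29 in p30 UT and 28 in p30 LPS. The enhancer at +12 kb, in the +10 kb bin, was a partner in p30 LPS with 47 contacts and in p42 UT with 72. The window richest in motifs at the -15 kb enhancer is shown because it lies in the partner bin listed with p42 alone. It lies at chr9:32467701-32467900 (GRCm39, plus strand), outside any protein-coding gene, and the capitals mark, in this order, a GATA, a RUNX, a C/EBP and an ETS match.
Fli1 -15 region: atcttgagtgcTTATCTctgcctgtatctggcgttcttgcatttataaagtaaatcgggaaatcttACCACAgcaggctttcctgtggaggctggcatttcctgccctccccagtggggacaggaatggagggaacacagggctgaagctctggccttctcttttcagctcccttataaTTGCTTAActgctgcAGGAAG

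Lmo2 (chr2:103788331-103812355, plus strand) encodes the bridging protein that joins Tal1 or Lyl1 to Gata factors through Ldb1. Its promoter loops numbered 13 and 12 in p30 and 18 and 15 in p42 cells, and 13 and 11 against 17 and 15 at equal list size. Of its 18 partners 17 lay upstream, and 11 loops were in all 4 lists, more than for any other of the 7 genes. The start-site bin had a relative coverage of 1.24 and 1.12 in p30 and 2.04 and 1.71 in p42 cells. Both p42 values were above both p30 values, with log2 differences of 0.72 untreated and 0.61 with LPS, higher than in 97.1% and 97.0% of all peak bins. The bin at -5 kb, which holds another Lmo2 start, had 1.25 and 1.08 in p30 and 2.02 and 1.67 in p42 cells, the same pattern.

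Among the known Lmo2 enhancers, those at -75 and -25 kb were partners of the promoter in all 4 lists. The -75 kb bin had 27 and 17 contacts in p30 and 49 and 19 in p42 cells. The -25 kb bin had 36 and 26 contacts in p30 and 69 and 40 in p42 cells. At both the p42 UT list was highest. The loops at -25, -65, -70 and -90 kb had more contacts in p42 UT than in p30 UT, with adjusted p = 0.0355, 0.00167, 0.0219 and 0.0292 by the exact binomial test. With LPS, contacts over the 11 loops in all 4 lists were 219 in p30 and 242 in p42 cells, a log2 ratio of 0.02 (95% Wilson interval -0.25 to 0.28), where the untreated ratio was 0.85 (0.62 to 1.07). The start-site coverage was thus higher with p42 under both treatments, while the interval of the contact ratio included 0 with LPS. The enhancer at -12 kb, in the -15 kb bin, was no partner of the canonical start in any list. That bin also holds annotated upstream Lmo2 starts, and had 8 and 8 loops of its own in p30 and 15 and 9 in p42 cells.

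The Lmo2 window at -25 kb is shown because the promoter contacted its bin in every list. It lies at chr2:103776208-103776407 (GRCm39, plus strand), outside any protein-coding gene, and the capitals mark, in this order, a RUNX, a GATA, an ETS and a C/EBP match.
Lmo2 -25 region: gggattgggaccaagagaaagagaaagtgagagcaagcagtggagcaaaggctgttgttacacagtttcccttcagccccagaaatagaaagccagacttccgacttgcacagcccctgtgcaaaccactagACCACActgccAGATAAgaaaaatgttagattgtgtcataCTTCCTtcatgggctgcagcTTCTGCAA

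Gata2 (chr6:88170559-88184018, plus strand) encodes the GATA factor of stem and early progenitor cells. The coverage of its distal enhancer, and of other upstream bins, differed between the isoforms more than that of its promoter. Gata2 had the fewest promoter loops, 1 and 3 in p30 and 5 and 3 in p42 cells, and none in all 4 lists. Relative coverage of its start-site bin was 2.06 and 2.09 in p30 and 1.92 and 1.65 in p42 cells, lower in both p42 lists than in both p30 lists by less than 1.5-fold. The log2 difference of p42 from p30 was -0.10 untreated and -0.34 with LPS, higher than in 36.8% and 11.8% of all peak bins, so the untreated value lay well inside the range of most bins.

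The -77 kb enhancer of Gata2 is a distal element required for Gata2 expression in progenitors. Counted from the upstream start at 88170559, its point lies in the bin at -85 kb from the canonical start bin. That bin had a relative coverage of 2.38 and 1.41 in p30 and 5.12 and 2.36 in p42 cells. As log2 differences, p42 exceeded p30 by 1.11 untreated and 0.74 with LPS, and LPS against UT gave -0.75 in p30 and -1.12 in p42 cells. The bin was thus over 1.5-fold higher with p42 under both treatments and over 1.5-fold lower with LPS in cells of both isoforms, and the promoter bin was neither. The next bin, at -80 kb, was in no loop of p30 UT and had 1.13 in p30 LPS and 4.10 and 1.85 in p42 cells. The p42 excess was not confined to this enhancer. Over the 17 peak bins of the Gata2 window in loops of all 4 lists, the median log2 difference was 0.5173 untreated and 0.445 with LPS. The bin at -130 kb had 1.103 and 0.8316, and the Rpn1 start-site bin at -115 kb had 0.6334 and 0.5145. Of the 17, the promoter and +5 kb bins were lower with p42 under both treatments, and the -15 kb bin was lower untreated alone.

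The Gata2 promoter was linked to the -85 kb bin in the p42 lists alone, with 22 contacts against 3.4 expected untreated and 11 against 2.5 with LPS. It was linked to the -75 kb bin in the same lists, with 32 contacts against 2.7 and 11 against 2.1 expected. The fewest contacts of a listed loop like the first were 12 in p30 UT and 11 in p30 LPS, so a p30 count near that of p42 LPS could have gone unlisted. In p30 UT the -85 kb bin was linked to the bin at -5 kb, which holds the upstream Gata2 start, with 11 contacts, and in p42 UT that pair had 17. Counted over all partners, the -85 kb bin had 6 and 2 loops in p30 and 42 and 9 in p42 cells, and 6 and 1 against 20 and 9 at equal list size. Of its 45 different loops, 38 were in no p30 list, where 40.2% of all loops were in none, and most of these came from the long p42 UT list. The bin was chosen for its few loops in the p30 lists and many in the p42 lists, so the 38 loops are no test of a difference. The partners in p42 UT included the start-site bins of Rpn1 with 29 contacts and Rab7 with 26.

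Sequence of both Gata2 elements is shown because coverage differed at the distal one and the intronic one is a textbook site of joint GATA and E-box binding. The window at the -77 kb element lies at chr6:88095529-88095728 (GRCm39, plus strand) in the -80 kb bin, outside any protein-coding gene, and its capitals mark, in this order, an E-box, an ETS and a C/EBP match. At the +9.5 kb element, chr6:88180127-88180226 (plus strand) holds an E-box followed 8 bases later by a GATA motif, both in capitals, 108 bases from the point. An E-box of the general form CANNTG, followed 7 to 9 bases later by AGATAA on either strand, was found in 4.46% of the peak bins in all 4 lists and in 0.165% of their 200-base windows.
Gata2 -77 region: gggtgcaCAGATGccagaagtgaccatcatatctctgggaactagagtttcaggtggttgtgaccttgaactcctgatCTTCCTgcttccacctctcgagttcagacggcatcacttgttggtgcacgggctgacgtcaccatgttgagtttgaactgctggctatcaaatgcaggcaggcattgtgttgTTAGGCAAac
Gata2 +9.5 region: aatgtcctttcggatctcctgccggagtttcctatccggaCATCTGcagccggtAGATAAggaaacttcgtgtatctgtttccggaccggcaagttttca
The bin with the +9.5 kb element, next to the start-site bin and too close to it for a listed loop, had a relative coverage of 1.898 and 1.718 in p30 and 1.695 and 1.497 in p42 cells, lower with p42 by less than 1.5-fold, as the promoter bin was.

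**Figure D4:**
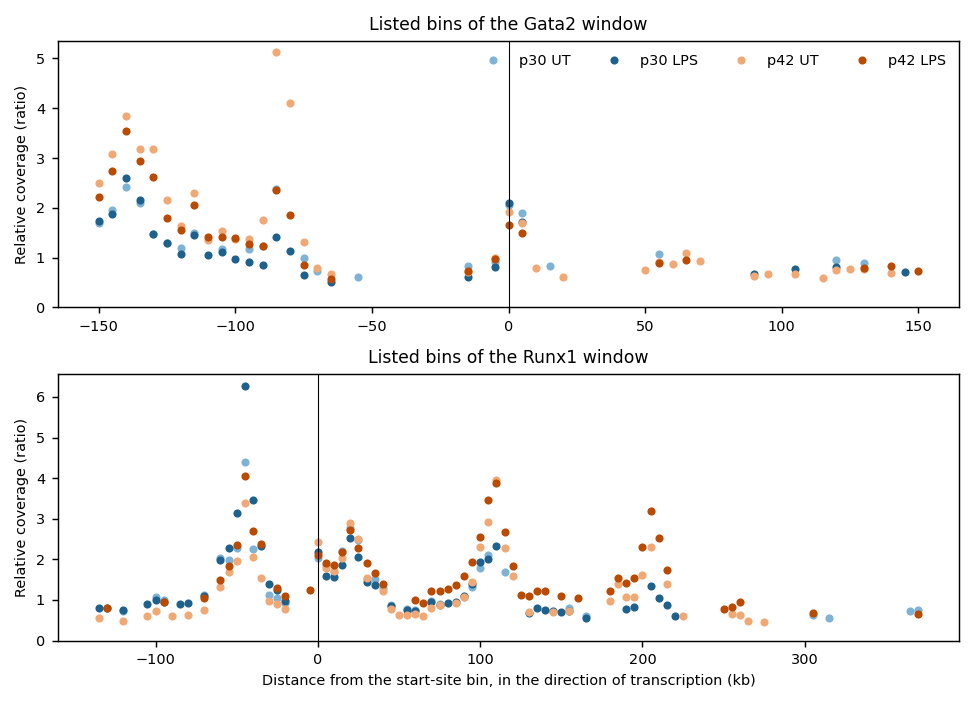
Relative coverage of the bins that were in a loop of a list, across the Gata2 window (top) and the Runx1 window (bottom), by distance from the start-site bin (kb); a bin in no loop of a list has no point for it. The Gata2 bin at -85 kb reaches 5.12 in p42 UT, and the Runx1 bins at +110 and +205 kb are higher in the p42 lists than in p30 LPS.

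Runx1 (chr16:92398354-92623037, minus strand), which starts blood formation in the embryo, is read from a distal promoter, here the canonical start, and a proximal promoter 130 kb into the gene. Its promoter loops numbered 7 and 11 in p30 and 23 and 10 in p42 cells, and 7 and 11 against 10 and 10 at equal list size. The excess in p42 UT was thus much smaller at equal list size, and with LPS the p30 count was the higher. Relative coverage of the start-site bin was 2.04 and 2.17 in p30 and 2.42 and 2.10 in p42 cells, without a common direction between the isoforms. The proximal promoter bin had 0 and 1 loops in p30 and 1 and 2 in p42 cells, and the loop that joined both promoters was in p42 UT alone, with 9 contacts against 1.8 expected.

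The +23 kb enhancer of Runx1, known from the first blood stem cells of the embryo, has its point at the border of the bins at +20 and +25 kb. The point itself falls in the +20 kb bin, which was a partner in p30 LPS with 35 contacts and in p42 UT with 48. The promoter contacted the next bin, at +25 kb, in all 4 lists, with 38 and 22 contacts in p30 and 60 and 22 in p42 cells, where 9.7 and 7.2 and then 11.01 and 8.4 were expected. The untreated lists were the higher with each isoform. Contacts in p42 cells were fewer in the LPS list than in the UT list, with adjusted p = 0.0284 by the exact binomial test. Over all loops the log2 ratio of LPS over UT was -0.28 in p42 cells. The difference between the untreated isoforms did not pass, at 0.227 by the same exact binomial test. Relative coverage of this bin was 2.47 and 2.05 in p30 and 2.51 and 2.28 in p42 cells.

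The window richest in motifs at the +23 kb enhancer lies in the +25 kb bin, at chr16:92597787-92597986 (GRCm39, plus strand), in an intron of Runx1. It is shown because it holds matches for 4 of the motifs, RUNX, E-box, GATA and ETS in this order, marked by capitals, and also the spaced pair of GATA motif and general E-box, on the minus strand and 9 bases apart. The pair is the marked TTATCT and the CAAATG after it, which is in small letters below. The marked E-box CATCTG is not part of the pair.
Runx1 +23 region: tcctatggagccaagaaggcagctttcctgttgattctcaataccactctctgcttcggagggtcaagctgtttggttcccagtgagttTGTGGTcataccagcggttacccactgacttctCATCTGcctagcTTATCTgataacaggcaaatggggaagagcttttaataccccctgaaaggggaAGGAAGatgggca

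Upstream of Runx1, bins at -40, -45 and -50 kb were partners in all 4 lists. Contacts with the -40 kb bin were 20 and 43 in p30 and 42 and 33 in p42 cells, lowest in p30 UT. They rose with LPS in p30 cells, with adjusted p = 0.0108 by the exact binomial test. The -45 kb bin had a relative coverage of 4.39 and 6.28 in p30 and 3.39 and 4.05 in p42 cells, higher with p30 than with p42 under each treatment and higher with LPS for each isoform. It had 5 and 24 loops in p30 and 14 and 10 in p42 cells, and 5 and 19 against 6 and 10 at equal list size, so that p30 LPS had the most under both list sizes.

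Inside Runx1, some bins had loops mainly in p42 cells. The bin at +110 kb, in an intron between the promoters, had 0 and 2 loops in p30 and 23 and 24 in p42 cells, and 0 and 2 against 10 and 24 at equal list size. Of its 30 different loops, 28 were in no p30 list and 17 in both p42 lists, where 40.2% and 27.9% of all loops were, though the bin was chosen for these values. Its partners in p42 cells included the +25 kb bin with 34 and 23 contacts, the promoter with 20 and 13, and the +205 kb bin with 29 and 23. The promoter loop was also in p30 LPS, with 12 contacts. Relative coverage of the +110 kb bin is unknown in p30 UT, was 2.33 in p30 LPS and was 3.96 and 3.87 in p42 cells. The next bin, at +105 kb, was listed everywhere, with 2.12 and 2.02 in p30 and 2.93 and 3.47 in p42 cells. The +205 kb bin had 0 and 3 loops in p30 and 7 and 12 in p42 cells, and 0 and 1 against 3 and 12 at equal list size. These bins, and that of Gata2 at -85 kb, were singled out after their values were seen.

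**Figure D5:**
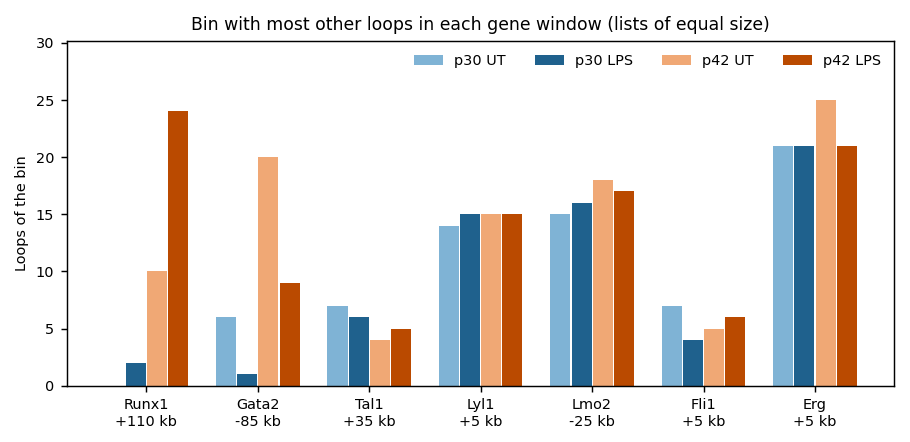
Number of loops of 1 bin in each gene window, the one with the most loops other than promoter loops, at equal list size (1 bar per list, counts without error). The bars of Runx1 at +110 kb and Gata2 at -85 kb are highest in a p42 list, while those of Lyl1 at +5 kb range from 14 to 15.

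Tal1 (chr4:114913623-114928952, plus strand), which directs blood specification, differed little between the isoforms in the number of its loops. It had 6 and 5 promoter loops in p30 and 10 and 5 in p42 cells, and 6 and 5 against 6 and 5 at equal list size. The start-site bin had a relative coverage of 2.10 and 1.92 in p30 and 2.15 and 1.72 in p42 cells, lower with LPS for both isoforms by less than 1.5-fold. The +40 kb enhancer, counted from the upstream start at 114913623, lies in the +35 kb bin at the neighbouring gene Pdzk1ip1. The promoter contacted it in all 4 lists, with 36 and 27 contacts in p30 and 32 and 16 in p42 cells, where 4.8 and 3.5 and then 4.5 and 3.1 were expected, and p42 LPS was lowest.

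The +19 kb enhancer of Tal1, in the +15 kb bin, was a partner with 59 and 52 contacts in p30 cells and with 56 in p42 UT, and the pair was not in the p42 LPS list, where the fewest contacts of a like loop were 37. Relative coverage of that bin was 2.91 and 2.52 in p30 and 2.07 and 1.64 in p42 cells, lower with p42 under both treatments. The -4 kb enhancer, in the -10 kb bin, was a partner in p30 LPS alone, with 55 contacts where 26.4 were expected. The fewest contacts of a listed loop of like distance and expected count were 45 in p30 UT, 44 in p42 UT and 45 in p42 LPS, so the contacts of this pair in those lists are unknown. Relative coverage of the -10 kb bin was 1.28 and 1.13 in p30 and 1.26 and 1.01 in p42 cells, lower with LPS for both isoforms. Over the 2 Tal1 loops in all 4 lists the contact log2 ratio of p42 over p30 was 0.15 untreated (95% Wilson interval -0.31 to 0.62) and -0.64 with LPS (-1.22 to -0.06). With LPS p42 held 41.24% of these contacts (95% Wilson interval 31.96 to 51.18%). The 48.01% given by the expected counts lay inside that interval.

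Lyl1 (chr8:85427936-85431569, plus strand), a paralogue of Tal1 in a gene-dense region, had 13 and 17 promoter loops in p30 and 22 and 14 in p42 cells, and 13 and 14 against 12 and 14 at equal list size. Of its 26 loops, 10 led to bins with the start of another gene, which is most of the 15 such loops of the 7 genes. Among these genes were Ier2, Nacc1, Trmt1, Dand5, Klf1 and Junb. Klf1, the erythroid Krüppel-like factor, was a partner in p30 LPS and p42 UT, and Junb, an AP-1 subunit, in p30 UT with 9 contacts. The far downstream bin at +115 kb was a partner everywhere, with 34 and 35 contacts in p30 and 35 and 31 in p42 cells, where 2.0 and 1.8 and then 2.2 and 1.9 were expected, so the lists hardly differed there. The loop to the -10 kb bin had 89 and 89 contacts in p30 and 174 and 98 in p42 cells, and that to the -35 kb bin 36 and 57 in p30 and 77 and 51 in p42 cells. Both had more contacts in p42 UT than in p30 UT, with adjusted p = 0.000102 and 0.0084 by the exact binomial test. The -35 kb loop also rose with LPS in p30 cells, with adjusted p = 0.0446 by the same exact binomial test. The start-site bin had a relative coverage of 2.93 and 2.74 in p30 and 3.47 and 2.62 in p42 cells, highest in p42 UT and without a common direction between the isoforms.

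The windows around the 7 genes gave 190 further loops in all 4 lists. Of these, 35 had more contacts in p42 UT than in p30 UT by the same test and first scaling, against the 10.7% of all loops, and 0 had fewer, against 0.126%. They were 6 of the 7 loops tested in the Gata2 window, 12 of 58 in that of Lmo2, 2 of 5 in that of Fli1, 1 of 6 in that of Tal1, 9 of 61 in that of Erg, 5 of 45 in that of Lyl1 and 0 of 8 in that of Runx1. With LPS 0 had more in p42, against 0.267%, and 2, both near Lyl1, had more in p30 cells, against 2.35%. After LPS 1 loop, near Gata2, rose in p30 cells, against 3.89%, and 6 fell in p42 cells, against 3.58%. Contacts over the 7 Gata2 window loops gave a log2 ratio of p42 over p30 of 0.86 untreated (95% Wilson interval 0.68 to 1.04) and 0.23 with LPS (0.03 to 0.43), above the 0.49 and 0.01 of all window loops. These ratios and calls depend on the first scaling. In the Gata2 loops p42 held 65.75% and 56.2% of contacts, where the expected counts gave 60.68% and 58.05%. Over all window loops it held 59.79% and 52.3%, where 54.72% and 54.53% were expected. The window calls are given under the first scaling alone.

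Among 148 window bins with a peak in loops of all 4 lists, 6 had over 1.5-fold more coverage in p42 under both treatments, against the 2.1% of all peak bins, and 0 had less, against 0.508%. The 6 were the start-site bins of Lmo2 and Erg, the bins at -5 kb of both genes, and the Gata2 bins at -85 and -130 kb, the latter with 1.48 and 1.47 in p30 and 3.19 and 2.61 in p42 cells. The bins lower with LPS for both isoforms were 2, against 0.112% of all peak bins, both at Gata2, at -85 and -75 kb. Those higher with LPS were 2, against 0.549%, both in the Erg window at or beside the neighbouring ETS gene Ets2, where the bin at -265 kb had 0.58 and 2.27 in p30 and 0.74 and 2.37 in p42 cells.

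Of 15 known enhancers looked up by their distance, 10 fell in a bin that the promoter contacted in at least 1 list and 3 within 5 kb of the start-site bin, and 2 had no loop to the canonical start, Gata2 -3 and Lmo2 -12. No share of other bins at like distances is given here, so the count does not set enhancers apart from the bins around them. At Erg every bin from +10 to +120 kb was a partner in at least 1 list, and at Lmo2 nearly every bin from -25 to -105 kb. Contacts in all 4 lists were found for 4, Tal1 +40, Lmo2 -75, Lmo2 -25 and Erg +85. Distances in the field are rounded and counted from differing starts, so the bin next to the one used can be meant.

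Genes for partners and neighbours of the heptad factors were described alongside as a list of 27. Of these 21 had a promoter loop, and at equal list size 3 had more with p42 under both treatments and 6 had fewer, beside the 13% and 14.7% of all genes. They had 42 loops in all 4 lists. Of these, 4 had more contacts in p42 UT than in p30 UT, all at Spi1, the ETS factor of myeloid cells, a share near the 10.7% of all loops. With LPS 2 had more in p30 than in p42 cells, against 2.35% of all loops, both at Ssbp3, which stabilises the Ldb1 complex. In p42 cells 4 had fewer contacts in the LPS list than in the UT list, against 3.58% of all loops, 1 each at Ssbp3, Gfi1b, Spi1 and Runx3.

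The genes nearest to each heptad gene in the number of promoter loops over the 4 lists were found by the summed absolute difference of log2(loops + 1). For Erg they were Parp10, Wfdc21 and Bhlhe40 (0.38, 0.48 and 0.54), and for Lmo2 Spn, Fos and Rnps1 (0, 0.17 and 0.25). Lyn and Rapgef6 had the same counts as Tal1, whose next nearest was Hic2 (0.14), and Ublcp1, Tm4sf19 and Sh3bp5l the same as Gata2. For Runx1 they were Spg7, Lyrm7 and Crlf3 (0.37, 0.42 and 0.46), for Lyl1 Aif1, Dcaf11 and Susd6 (0.22, 0.23 and 0.24), and for Fli1 Aff1, Rnf43 and Cfb (0.23, 0.27 and 0.29).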

How the data were processed

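H3K27ac HiChIP of 8 libraries in 4 groups was analysed from the 4 loop lists deposited by the authors, 1 per group with both replicates pooled. Reads were mapped to mm39 with BWA 0.7.17, processed with pairtools and called with FitHiChIP at 5 kb and a q-value under 0.01, as stated in the methods and processing notes of the authors. How replicates were pooled was not given in the sources used here. The deposited contact count is the raw number of ligation products between 2 bins, and the deposited expected count is the caller's estimate from distance and coverage. The contact probability is deposited as a fraction, and coverage is deposited as reads per bin. The coverage bias in the deposited lists is a ratio to the mean of peak or other bins. Since the caller lists significant pairs alone, contacts of an unlisted pair are unknown, and its coverage correction can take up a real difference in acetylation.

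Loops were matched when both bins were identical. Modelled contacts were computed from the expected count divided by the probability, and relative coverage as coverage over the mean peak bin recovered from the bias. Contacts were compared by two-sided exact binomial tests with Benjamini-Hochberg adjustment over all loops in all 4 lists (threshold 0.05), with the null share from modelled contacts. The statistics were tested on simulated data. Genes came from GENCODE M39 (21738 protein-coding genes, 1 start each), and sequences from GRCm39, the assembly behind mm39. The genes and lists were chosen with earlier results of these data known, and the reference starts of the enhancers, the centred null and the bins described inside Runx1 and at Gata2 were chosen after the data were seen. All 7 genes, the partner genes with a loop past the test, and the 3 genes nearest to each in loop pattern were named. Alternatives were list size, q-value, contact minimum, start sites and neighbouring bins, scaling and the null share. Python 3.11.15 with numpy 2.4.6, pandas 2.3.3, scipy 1.17.1 and matplotlib 3.10.9 was used.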

Additional observations from a re-analysis of the deposited data

Results flagged for a closer look

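Some values moved in opposite directions with LPS in p30 and in p42 cells. None of these differences was tested, since each group is 1 pooled list. The summed contacts of the 38 heptad promoter loops in all 4 lists rose with LPS in p30 and fell in p42 cells, with a difference of 0.60 between the log2 ratios. For Lyl1 alone the difference was also 0.60. The ratios had opposite signs for all 6 genes with such loops, and Lyl1 was the gene whose 95% Wilson intervals both left out 0. This held per modelled contact alone. In p42 cells the LPS list held 39.86% of the Lyl1 contacts (95% Wilson interval 36.82 to 42.97%), and the 41.46% given by the expected counts lay inside that interval. For Lmo2 the ratios were 0.14 in p30 and -0.69 in p42 cells, and for Tal1 0.06 and -0.74, further apart than for Lyl1. Over all loops the ratios also had opposite signs, 0.29 and -0.28. The number of heptad promoter loops rose by 7 with LPS in p30 cells and fell by 42 in p42 cells, a difference of 49. At equal list size it went from 59 to 55 in p30 and from 79 to 78 in p42 cells, so that the opposite movement was not present. In start-site coverage, Runx1 differed by 0.30 and Gata2 by 0.23 between the log2 changes with LPS in both lines, with the p30 value higher for each.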

How the results depend on the processing

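No paired analysis was possible because each group is 1 list that pools its replicates, and for the same reason no replicate could be left out. Dividing contacts by the expected count, which takes up coverage, moved the log2 ratio of heptad promoter contacts from 0.68 to 0.42 (p42 over p30, UT), from 0.08 to -0.08 (p42 over p30, LPS) and from -0.40 to -0.27 (LPS over UT, p42). The excess of promoter loops in p42 over p30 cells moved from 61 to 20 untreated and from 12 to 23 with LPS at equal list size, and from 61 to 114 untreated with the 2 neighbouring bins added. The Lyl1 difference changed sign at equal list size, from 9 to -1 untreated. By the exact binomial test, the 13 loops higher in p42 UT became 0 with the null share from expected counts and 0 with the null centred on the loops tested, where the share of all loops called fell from 10.7% to 1.4% and 1.55%. The 2 loops that rose with LPS in p30 cells became 0 and 0 in the same way, and 1 over loops in both lists of the comparison. The 1 loop that fell in p42 cells became 0, 0 and 0. Of the alternatives for the summed values, 30 moved the value by less than its interval or 1.5 times, and 14 by more, which are those above. Scaling coverage by the median ratio of peak bins gave a median of 0.25 untreated and -0.03 with LPS over the 7 start-site bins, beside 0.25 and -0.05. Depth limits the loops with few contacts, and an unlisted pair has no value.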

Other observations

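The progenitor genes Kit, Cd34, Ptprc and Myb had 13 promoter loops in all 4 lists. Of these, 5 had more contacts in p42 UT than in p30 UT by the exact binomial test, 4 at Ptprc, the CD45 gene, and 1 at Cd34, against 10.7% of all loops tested. Relative coverage of the Ptprc start-site bin differed between p42 and p30 by 0.82 (log2) untreated and 0.12 with LPS. No hypothesis was tested.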
